A study of Homo sapiens with 6 samples.

Results

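The genes described here are 10 genes of the G1 phase engine of the cell cycle: the D-type cyclins CCND1, CCND2 and CCND3, the E-type cyclins CCNE1 and CCNE2, the cyclin-dependent kinases CDK2, CDK4 and CDK6, and the inhibitors CDKN1B (p27) and CDKN2C (p18). They were picked by gene symbol, all 10 were found among the 53715 genes of the deposited count table, and 9 of them were among the 19156 genes with enough reads to be tested. The exception was CDKN2C.

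The libraries came from H9, an established line of human embryonic stem cells held in the primed pluripotent state. The study addressed what LINE-1 (L1), an abundant family of transposable elements, does in these cells. The 3 transfections compared had 2 libraries each: ASO-Ctr, a non-targeting antisense oligonucleotide, sO-L1, an oligonucleotide in the sense orientation of L1, and ASO-L1, an antisense oligonucleotide against L1. All 3 groups received 25 nM of an oligonucleotide carrying a fluorescein label, with Lipofectamine Stem, together with Trans-ISRIB at 0.7 uM, which blocks the integrated stress response, the caspase blocker emricasan at 5 uM, and a ROCK inhibitor at 10 uM. These small molecules were taken off after 24 hours, and fluorescent cells were sorted at 48 hours. The labels name mTeSR in one place and RSeT in another as the medium after transfection. They do not say whether the 2 libraries of a group came from separate cultures, so the spread behind the p-values may be technical. The main fit takes out the difference between replicate numbers. Its p-values therefore measure the spread that is left, moderated with that of all genes, and not the full spread within a group. L1 RNA itself was not analysed here, so the action of the oligonucleotides on their target was not checked.

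In G1, extracellular signals raise the D-type cyclins, which bind CDK4 or CDK6 and start to phosphorylate the retinoblastoma protein. Phosphorylated retinoblastoma protein releases E2F transcription factors, E2F factors raise the E-type cyclins, and cyclin E with CDK2 carries the cell into S phase. Proteins of the INK4 family, such as p18, block CDK4 and CDK6, while those of the CIP/KIP family, such as p27, bind cyclin-CDK complexes more broadly. Primed human embryonic stem cells are known for a short G1 phase.

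Depth ranged from 18897936 to 67192937 counts per library, so a count of 3, taken as the floor of detection, was worth 0.0446 to 0.159 CPM, counts scaled to a library size of 1e6. Mitochondrial genes held 3.79% to 4.24% of the counts. All 10 markers of pluripotent stem cells were tested, and their summed level was 8655 to 9345 CPM. Within that sum the genes did not move together. Group means in ASO-Ctr, sO-L1 and ASO-L1 were 84.8, 81.9 and 72.6 CPM for NANOG and 1653, 1645 and 1415 CPM for DNMT3B. For SOX2 they were 414, 426 and 490 CPM, and for POU5F1 1070, 1075 and 1093 CPM. The summed lists of 6 markers each were at 1.996 to 2.66 CPM for mesoderm and 9.61 to 11.1 CPM for trophoblast and amnion. The endoderm sum was 5.02 and 3.90 CPM in ASO-L1 against 5.41 to 7.75 CPM in the other 4 libraries, and the neuroectoderm sum 10.7 and 9.54 CPM against 11.3 to 12.2 CPM, so both were lowest in ASO-L1. Within the endoderm list, FOXA2 was at 1.95 and 1.61 CPM in ASO-L1 against 3.16 to 3.84 CPM in the other 4. The other endoderm genes did not all follow FOXA2. Group means in ASO-Ctr, sO-L1 and ASO-L1 were 1.54, 1.95 and 1.84 CPM for AFP and 0.777, 0.938 and 0.717 CPM for CXCR4. GATA4 was highest in ASO-L1, with 9 counts over all libraries. SOX17, GATA4, GATA3 and CDX2 had 12 counts or fewer over all 6 libraries, and HAND1 had 0. The 6 fibroblast markers summed to 138 and 155 CPM in ASO-Ctr, 136 and 161 CPM in sO-L1, and 165 and 172 CPM in ASO-L1. Nearly all of that was COL1A1 and COL1A2, while DCN had 1 count and LUM 8 counts in all libraries together. The group means in ASO-Ctr, sO-L1 and ASO-L1 were 48.5, 48.4 and 74.8 CPM for COL1A1. For COL1A2 they were 95.9, 97.8 and 91.6 CPM, so COL1A1 was higher in ASO-L1 and COL1A2 was not. The part of these markers in the results below was not tested. In bulk RNA, fewer cells in a phase or of a type cannot be told apart from less RNA per cell.

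Promoter sequence was taken for these genes from RefSeq (GRCh38.p14), as the 250 bases before a transcription start. Entries were found for CCND3, CCNE1, CDK4, CDK6, CDKN1B and CDKN2C, 11 in all, and not for CCND1, CCND2 or CDK2. CCNE2 was not looked up, so the motif search leaves out 1 of the E-type cyclins. Both strands were searched for an E2F motif (TTTNNCGC, present in 5.92% of 35114 promoters), an E-box (CACGTG, in 6.35%) and a GC box (GGGCGG, in 42.6%). In the windows of these genes no match to one motif overlapped a match to another. The windows of 2 genes are shown, CCNE1 as the gene with an entry that was called in both ASO-L1 comparisons below, and CDK4 as the kinase with a level that differed little between any groups. The first lies at chr19:29811741-29811990 on the plus strand, and its capitals mark 7 GC boxes. The second lies at chr12:57752311-57752560 on the minus strand, and its capitals mark 3 E-boxes. Both are written 5′ to 3′ along the gene.
CCNE1: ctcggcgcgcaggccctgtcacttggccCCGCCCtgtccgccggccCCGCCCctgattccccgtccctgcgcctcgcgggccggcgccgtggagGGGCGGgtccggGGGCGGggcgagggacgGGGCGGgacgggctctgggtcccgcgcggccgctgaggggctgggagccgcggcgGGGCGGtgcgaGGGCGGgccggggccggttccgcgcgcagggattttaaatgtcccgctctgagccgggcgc
CDK4: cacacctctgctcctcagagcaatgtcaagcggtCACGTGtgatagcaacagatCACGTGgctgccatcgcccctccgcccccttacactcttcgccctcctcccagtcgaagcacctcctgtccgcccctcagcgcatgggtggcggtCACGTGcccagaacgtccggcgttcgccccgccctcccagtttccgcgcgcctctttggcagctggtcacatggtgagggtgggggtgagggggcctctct
The CCNE1 window held no match to the E2F motif or the E-box, and the CDK4 window held 3 GC boxes besides its E-boxes. None of the 11 windows held these E2F letters. CDKN2C was the other gene with an E-box, 1 in each of 2 of its 3 windows. A match of letters describes the sequence and is not a measured binding site.

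Across the genes tested, 1 rose (CCND2) and 3 fell (CCND1, CCNE1 and CDK2) in ASO-L1 against sO-L1, and 1 rose (CCND2) and 3 fell (CCND1, CCNE1 and CDK6) in ASO-L1 against ASO-Ctr. Calls were made at an adjusted p under 0.05 by the quasi-likelihood test of edgeR in a fit that held the replicate number as a block. Of all 19156 genes tested, 10.3% were called higher and 12.7% lower in ASO-L1 against sO-L1, and 9.88% higher and 11.6% lower in ASO-L1 against ASO-Ctr. The 2 comparisons share the ASO-L1 libraries. The median log2 fold change of the 9 genes was -0.02 and -0.03, beside -0.00 for all genes in both comparisons. In sO-L1 against ASO-Ctr, where 0.658% of all genes were called higher and 1.06% lower, 0 of the 9 were called; 2 had an unadjusted p under 0.05 in edgeR (CCND1 and CDK6), 2 in limma-voom and 0 in DESeq2. Without the replicate block, 0 of the 9 genes were called in any comparison, and 2 had an unadjusted p under 0.05 in each ASO-L1 comparison. That fit called 1.84% and 1.95% of all genes in the 2 ASO-L1 comparisons and 0% in sO-L1 against ASO-Ctr. In CPM, the libraries of ASO-L1 and sO-L1 did not overlap for 4 of the 9 (CCND2, CCNE1, CDK2 and CDKN1B), beside 47.1% of all genes, and those of ASO-L1 and ASO-Ctr for 3 of the 9 (CCND2, CCNE1 and CDKN1B), beside 48.6%. The plot of levels by library shows the values behind these calls.

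**Figure D1:**
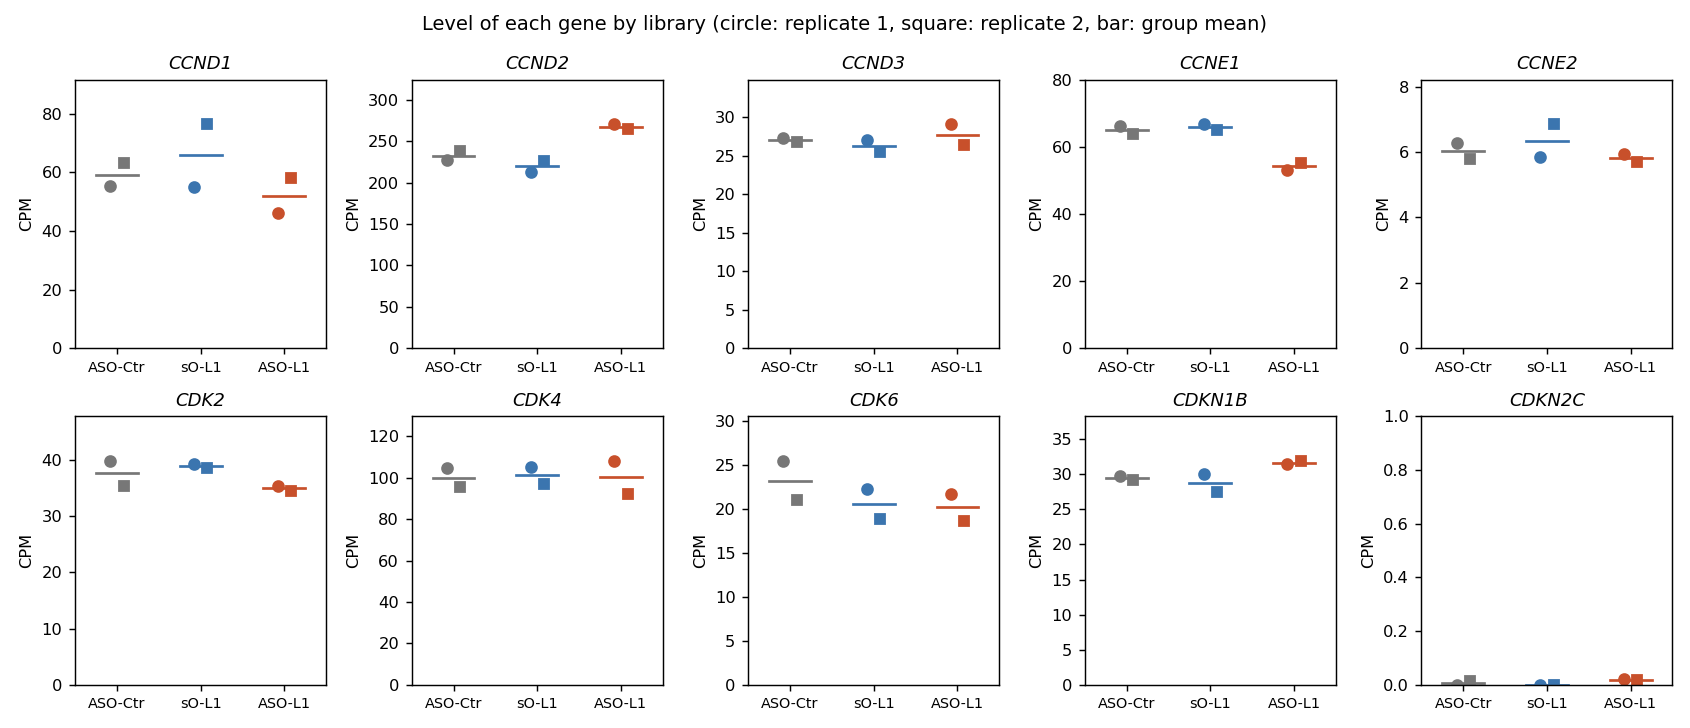
Level of each of the 10 genes in CPM (linear axes from 0) in the 6 libraries, with circles for replicate 1, squares for replicate 2 and a bar at the group mean. CCND2 sits at 265 and 271 CPM in ASO-L1, above all 4 other libraries, and CCNE1 at 53.3 and 55.3 CPM, below all 4, while CCND1 overlaps between groups and CDKN2C lies at 0 or 1 count.

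CCND2, the most abundant D-type cyclin, was higher in ASO-L1. Its level was 227 and 238 CPM in ASO-Ctr, 213 and 227 CPM in sO-L1, and 271 and 265 CPM in ASO-L1. Both ASO-L1 libraries were above all 4 others. The log2 fold change in ASO-L1 was 0.29 ± 0.05 (SE, n = 2 per group) against sO-L1, a rise of 21.9%, with an adjusted p of 6.3e-06 in edgeR, and 0.0781 without the block. Against ASO-Ctr it was 0.20 ± 0.05, with an adjusted p of 0.00113, and 0.188 without the block. The second call was also lost when ASO-L1 replicate 1 was left out (0.15, adjusted p 0.105). The log2 fold change over 15 alternative settings was 0.23 to 0.34 against sO-L1 and 0.15 to 0.26 against ASO-Ctr, with adjusted p from 1.2e-08 to 0.0781 and from 1.1e-04 to 0.188. In sO-L1 against ASO-Ctr the log2 fold change was -0.08 ± 0.05 (adjusted p 0.489). In GENCODE v29, AC008012.1, on the same strand, overlaps 13.8% of the CCND2 exons and was not found in the count table. Its share in the CCND2 counts was not tested.

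CCND1, the D-type cyclin best known as a target of growth factor and WNT signals, moved the other way, with more spread between libraries. Its level was 55.2 and 63.2 CPM in ASO-Ctr, 55.2 and 76.4 CPM in sO-L1, and 46.0 and 58.0 CPM in ASO-L1. Replicate 2 was above replicate 1 in each group, and the groups overlapped. Within each replicate number ASO-L1 was below sO-L1, by 0.26 and 0.39 on the log2 scale, and 72.1% of all genes kept 1 sign in this way. The fitted log2 fold change was -0.34 ± 0.06 against sO-L1 (fold 0.791, adjusted p 6.0e-06 in edgeR). Without the block its SE was 0.157 and its adjusted p 0.318. The change against sO-L1 was called in 14 of 15 alternatives, with adjusted p from 5.7e-09 to 0.318 over all 15. It was smaller without sO-L1 replicate 2, the highest library (-0.23, adjusted p 0.0488). Against ASO-Ctr the log2 fold change was -0.18 ± 0.06 (adjusted p 0.0201, and 0.599 without the block). This second call was lost in 7 of 15 alternatives, which included DESeq2 (adjusted p 0.0948) and limma-voom (0.0513), with adjusted p from 0.00205 to 0.599 over all 15. It was -0.09 without ASO-Ctr replicate 1 and -0.30 without ASO-Ctr replicate 2, and it was also lost without ASO-L1 replicate 1 (adjusted p 0.068) or ASO-L1 replicate 2 (0.105). CCND1 was 0.16 ± 0.06 higher in sO-L1 than in ASO-Ctr, a difference that did not pass (adjusted p 0.164). ORAOV1, on the opposite strand, overlaps 10.3% of the CCND1 exons in GENCODE v29. Its share in the CCND1 counts was not tested.

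In the authors' deposited log2 table, which holds values after batch correction, the ASO-L1 libraries had CCND1 at 5.70 each, against 5.96 and 6.10 for sO-L1 and 5.93 and 5.81 for ASO-Ctr. On that scale the ASO-L1 libraries lay below all 4 others, unlike in the CPM.

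CCND3, the remaining D-type cyclin, stayed within a narrow band. Its level was 27.3 and 26.8 CPM in ASO-Ctr, 27.01 and 25.5 CPM in sO-L1, and 29.04 and 26.4 CPM in ASO-L1, and all groups overlapped. Its log2 fold change was 0.08 ± 0.06 in ASO-L1 against sO-L1 (95% interval -0.05 to 0.21, adjusted p 0.423) and 0.03 ± 0.07 against ASO-Ctr (-0.11 to 0.16, adjusted p 0.833). CCND3 did not pass in sO-L1 against ASO-Ctr either (-0.05 ± 0.07, adjusted p 0.819).

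The make-up of the D-type cyclin counts follows from these values. In ASO-L1, CCND1 held 13.3% and 16.6% of them, against 18.7% and 23.2% for sO-L1 and 17.8% and 19.2% for ASO-Ctr. The exact (Clopper-Pearson) 95% interval for the lowest of these was 12.8% to 13.9% and for the highest 22.7% to 23.8%, and such intervals cover counting error only. Both ASO-L1 libraries were below the other 4. Per count of CCND1 there were 5.88 and 4.57 counts of CCND2 in ASO-L1, against 3.85 and 2.97 for sO-L1 and 4.12 and 3.77 for ASO-Ctr. Summed over the 3 genes, the D-type cyclins were at 310 and 328 CPM in ASO-Ctr, 295 and 329 CPM in sO-L1, and 346 and 350 CPM in ASO-L1. With 2 libraries against 2, an exact two-sided permutation test cannot go below p = 0.333, and these ratios are given as a description.

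**Figure D2:**
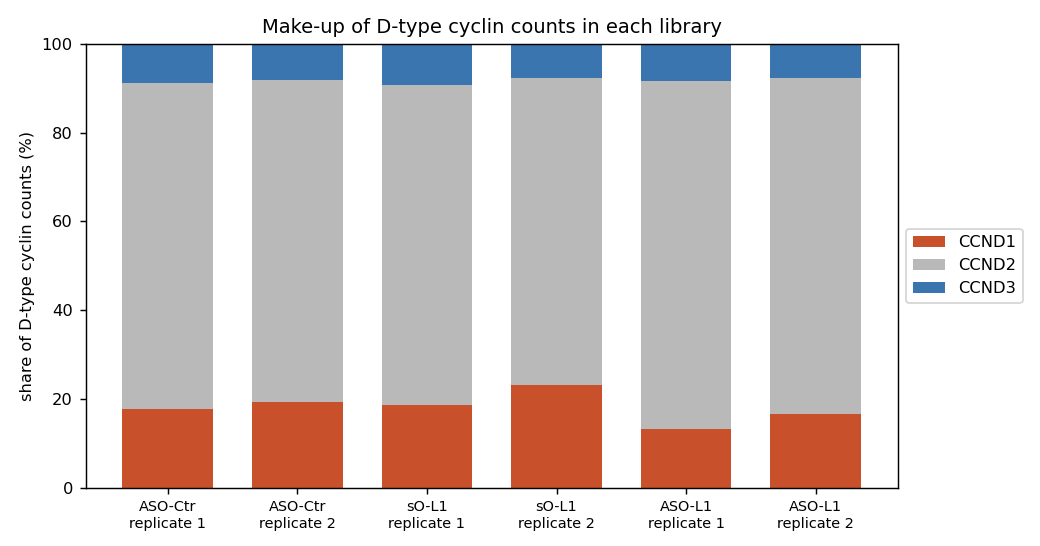
Share of CCND1, CCND2 and CCND3 in the D-type cyclin counts of each library, as stacked bars in percent (linear axis from 0 to 100). CCND1 takes 13.3% and 16.6% in the 2 ASO-L1 libraries and 17.8% to 23.2% in the other 4, and CCND2 takes the largest share in all 6.

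CDK4 and CDK6, the kinases that D-type cyclins activate, gave 1 call between them. CDK4 was at 105 and 95.3 CPM in ASO-Ctr, 105 and 97.1 CPM in sO-L1, and 108 and 92.2 CPM in ASO-L1. The replicates of a group differed by more than the group means did. The log2 fold change of CDK4 was -0.02 ± 0.05 against sO-L1 (95% interval -0.12 to 0.08, adjusted p 0.834) and -0.00 ± 0.05 against ASO-Ctr (-0.10 to 0.10, adjusted p 0.975), and its sign changed between settings in both. TSPAN31, on the opposite strand, overlaps 43.2% of the CDK4 exons in GENCODE v29, and whether counting used strand is not given in the sources used here, so reads from that stretch cannot be assigned with certainty. TSPAN31 fell in ASO-L1 against sO-L1, with a log2 fold change of -0.37 ± 0.07 (adjusted p 1.3e-04, and 0.078 without the block). Its share in the CDK4 counts was not tested.

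CDK6 was at 25.4 and 21.0 CPM in ASO-Ctr, 22.3 and 18.8 CPM in sO-L1, and 21.7 and 18.7 CPM in ASO-L1. Replicate 1 was higher in each group, and the groups overlapped. In ASO-L1 against ASO-Ctr the log2 fold change was -0.19 ± 0.07, with an adjusted p of 0.0454, which passed narrowly and was kept in 2 of 15 alternatives (adjusted p 0.0428 to 0.529; 0.195 in DESeq2, 0.066 in limma-voom and 0.529 without the block). Leaving out any 1 of the 6 libraries ended the call, with values from -0.22 to -0.17. Against sO-L1 the value was -0.02 ± 0.07 (adjusted p 0.853). The difference of sO-L1 from ASO-Ctr, -0.17 ± 0.07, was close in size to that of ASO-L1 and did not pass (adjusted p 0.283); these 2 comparisons share the ASO-Ctr libraries.

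CCNE1, cyclin E1, is an E-type cyclin that activates CDK2 at the entry into S phase. Its level was 66.4 and 63.8 CPM in ASO-Ctr, 66.8 and 65.1 CPM in sO-L1, and 53.3 and 55.3 CPM in ASO-L1. Both ASO-L1 libraries lay below all 4 others, and the spread within a group was small, at an SD of 1.84, 1.15 and 1.43 CPM. The log2 fold change was -0.28 ± 0.05 against sO-L1 (fold 0.824, adjusted p 5.6e-05 in edgeR) and -0.26 ± 0.05 against ASO-Ctr (fold 0.837, adjusted p 2.8e-04). Without the block the adjusted p was 0.0868 and 0.109. CCNE1 was called in 14 of 15 alternatives in each of these comparisons, with log2 fold changes from -0.37 to -0.23 and from -0.34 to -0.21, and adjusted p from 1.6e-06 to 0.0868 and from 2.1e-04 to 0.109. In sO-L1 against ASO-Ctr it was 0.02 ± 0.05 (adjusted p 0.913). No other gene of GENCODE v29 overlaps its exons, and the 7 GC boxes shown above lie in the window before its start.

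CCNE2, cyclin E2, had 1 count for every 8.96 to 11.4 counts of CCNE1, and no call was made. It was at 6.27 and 5.79 CPM in ASO-Ctr, 5.84 and 6.84 CPM in sO-L1, and 5.94 and 5.68 CPM in ASO-L1, so that sO-L1 replicate 2 was the highest library. Its log2 fold change was -0.14 ± 0.11 in ASO-L1 against sO-L1 (95% interval -0.37 to 0.09, adjusted p 0.406) and -0.03 ± 0.12 against ASO-Ctr (adjusted p 0.91). At 118 to 422 counts per library its interval was wide enough to hold the change seen in CCNE1. INTS8, on the opposite strand, overlaps 37.0% of its exons, and reads from that stretch cannot be assigned with certainty either. INTS8 was at 85.6 and 83.1 CPM in ASO-Ctr, 82.1 and 89.5 CPM in sO-L1, and 93.3 and 94.3 CPM in ASO-L1. Its log2 fold change was 0.13 ± 0.05 against sO-L1 (adjusted p 0.0644), and it rose by 0.16 ± 0.05 against ASO-Ctr (adjusted p 0.0211, and 0.337 without the block). Its part in the CCNE2 counts was not tested.

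CDK2, the partner of the E-type cyclins, was at 39.8 and 35.4 CPM in ASO-Ctr, 39.3 and 38.6 CPM in sO-L1, and 35.5 and 34.5 CPM in ASO-L1. ASO-L1 lay below sO-L1 with no overlap, and it overlapped ASO-Ctr. The log2 fold change against sO-L1 was -0.16 ± 0.06 with an adjusted p of 0.0448, a narrow pass that 10 of 15 alternatives ended (adjusted p 0.0308 to 0.402). Among these were DESeq2 (0.188), limma-voom (0.0527), upper-quartile scaling (0.0538), no filter on low counts (0.0984) and the fit without the block (0.402), and leaving out any sO-L1 or ASO-L1 library also ended it, with values from -0.19 to -0.12. Against ASO-Ctr it was -0.09 ± 0.06 (adjusted p 0.315). AC025162.1, an antisense gene of GENCODE v29, overlaps 14.5% of the CDK2 exons and was not found in the count table. Its share in the CDK2 counts was not tested.

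**Figure D3:**
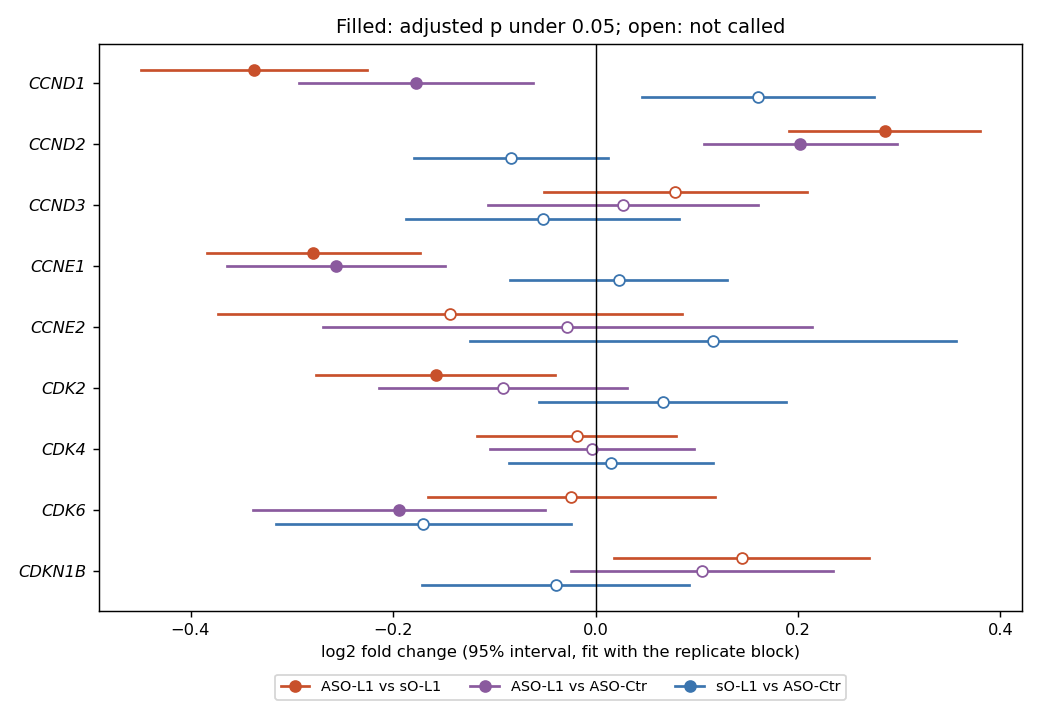
Log2 fold change of the 9 tested genes in the 3 comparisons, with 95% intervals from the edgeR fit with the replicate block; filled points passed at an adjusted p under 0.05. CCND2 lies to the right of 0 in both ASO-L1 comparisons (0.29 and 0.20), CCND1 (-0.34 and -0.18) and CCNE1 (-0.28 and -0.26) lie to the left, and no gene passes in sO-L1 against ASO-Ctr.

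CDKN1B encodes p27, the CIP/KIP inhibitor of cyclin E and CDK2 complexes. It was at 29.7 and 29.1 CPM in ASO-Ctr, 30.1 and 27.5 CPM in sO-L1, and 31.4 and 31.9 CPM in ASO-L1. Both ASO-L1 libraries were above the other 4. The log2 fold change was 0.14 ± 0.06 against sO-L1 (95% interval 0.02 to 0.27, unadjusted p 0.0257, adjusted p 0.0929) and 0.11 ± 0.06 against ASO-Ctr (adjusted p 0.269), and no setting gave a call. Per count of CDK2 there were 0.886 and 0.923 counts of CDKN1B in ASO-L1, against 0.764 and 0.711 for sO-L1 and 0.745 and 0.822 for ASO-Ctr, with both ASO-L1 libraries above the others. This ratio was not tested.

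CDKN2C, the INK4 inhibitor p18, was at the edge of detection. Its counts were 1 and 1 for ASO-L1, 0 and 0 for sO-L1, and 0 and 1 for ASO-Ctr, all below the floor of 3 counts per library. No difference was detectable at this depth, and no fold is given.

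Beside these, 6 other CDK inhibitor genes were listed, of which 4 could be tested. In ASO-L1 against sO-L1, 1 rose and 2 fell, and against ASO-Ctr 1 rose and 1 fell. Among all genes tested, 10.3% were called higher and 12.7% lower against sO-L1, and 9.88% and 11.6% against ASO-Ctr. CDKN1A, the p53 target p21, was at 47.6 and 43.2 CPM in ASO-Ctr, 44.3 and 39.6 CPM in sO-L1, and 71.6 and 60.4 CPM in ASO-L1. Both ASO-L1 libraries were above all others, and the log2 fold change was 0.65 ± 0.05 against sO-L1 (adjusted p 2.0e-13, and 0.0194 without the block) and 0.53 ± 0.06 against ASO-Ctr (1.5e-10 and 0.0362). CDKN1A was thus called with and without the block in both comparisons, which none of the 9 G1 genes was.

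CDKN1C, the CIP/KIP inhibitor p57, which is expressed from an imprinted locus, moved opposite to CDKN1A. It was at 6.32 and 6.47 CPM in ASO-Ctr, 6.99 and 6.58 CPM in sO-L1, and 4.56 and 3.78 CPM in ASO-L1. ASO-L1 was lower by a log2 fold change of -0.71 ± 0.12 against sO-L1 (adjusted p 7.8e-06, and 0.046 without the block) and of -0.65 ± 0.12 against ASO-Ctr (7.0e-05 and 0.0691). The 3 CIP/KIP genes therefore stood at 1 higher (CDKN1A), 1 lower (CDKN1C) and 1 not called (CDKN1B). CDKN3, a phosphatase that acts on CDK2, fell by 0.18 against sO-L1 (SE 0.06, adjusted p 0.04, and 0.377 without the block) and was at -0.17 against ASO-Ctr (adjusted p 0.0662).

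Of the INK4 genes, CDKN2D (p19) was the one with enough counts, at 1.56 to 1.91 CPM, and its log2 fold change was 0.17 ± 0.19 against sO-L1 (adjusted p 0.596) and -0.09 ± 0.20 against ASO-Ctr (adjusted p 0.805). CDKN2A had 0 to 4 counts per library and CDKN2B 2 to 9, too few to be tested. With CDKN2C, 3 of the 4 INK4 genes were therefore close to or below the floor in all groups.

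**Figure D4:**
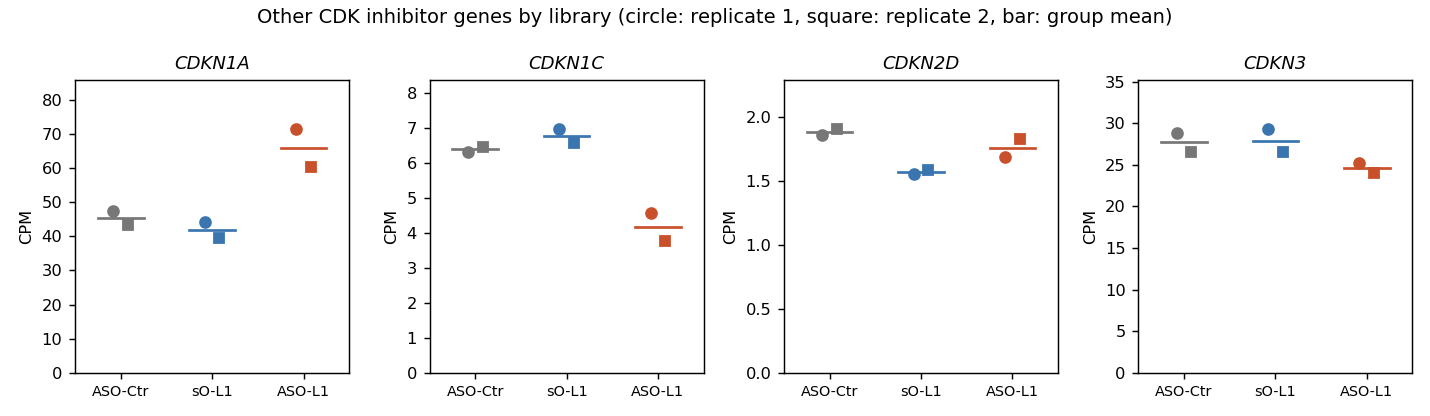
Level in CPM (linear axes from 0) of the 4 other tested CDK inhibitor genes by library, with circles for replicate 1, squares for replicate 2 and a bar at the group mean. In ASO-L1 CDKN1A lies at 60.4 and 71.6 CPM, above the other 4 libraries, and CDKN1C at 3.78 and 4.56 CPM, below them.

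Downstream of CDK4 and CDK6, the list of 13 pocket proteins and E2F-DP factors had 0 higher and 3 lower genes in each ASO-L1 comparison, with a median log2 fold change of -0.07 and -0.05. Lower calls made up 12.7% and 11.6% of all genes tested in these comparisons, and higher calls 10.3% and 9.88%. RB1, the retinoblastoma protein, was at 41.6 and 45.7 CPM in ASO-Ctr, 42.4 and 45.7 CPM in sO-L1, and 33.0 and 36.6 CPM in ASO-L1. Its log2 fold change was -0.34 ± 0.06 against sO-L1 (adjusted p 9.3e-06, and 0.0999 without the block) and -0.33 ± 0.06 against ASO-Ctr (2.9e-05 and 0.11). TFDP1, a DP protein with which many E2F factors bind DNA, was at 175 and 172 CPM in ASO-Ctr, 185 and 175 CPM in sO-L1, and 141 and 146 CPM in ASO-L1. It fell by 0.32 (SE 0.05, adjusted p 9.4e-07, and 0.0531 without the block) and by 0.27 (SE 0.05, adjusted p 2.8e-05, and 0.0858 without the block) on the log2 scale. For RB1 and TFDP1 both ASO-L1 libraries lay below the other 4. The other gene was E2F2 against sO-L1 (-0.26, adjusted p 0.0421) and E2F7 against ASO-Ctr (-0.15, adjusted p 0.0339).

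The 17 E2F target genes of S phase entry had 0 higher and 5 lower genes in ASO-L1 against sO-L1 and 0 higher and 1 lower against ASO-Ctr, with medians of -0.04 and -0.01. Over all genes tested the lower calls were 12.7% and 11.6%, and the higher calls 10.3% and 9.88%. MCM6, a subunit of the replicative helicase, had -0.24 ± 0.05 against sO-L1 (adjusted p 1.2e-04) and RRM1, the large subunit of ribonucleotide reductase, -0.21 ± 0.05 (adjusted p 5.8e-04). RRM1 was also the 1 gene that fell against ASO-Ctr (-0.14, adjusted p 0.0235). PCNA (-0.15) and RRM2 (-0.18) also fell against sO-L1. None of these calls held without the block. In sO-L1 against ASO-Ctr, MCM6 was at 0.14, PCNA at 0.13, RRM2 at 0.14 and RRM1 at 0.07, all uncalled. In ASO-L1 against ASO-Ctr, MCM6 was at -0.10, PCNA at -0.02 and RRM2 at -0.04, also uncalled. The falls against sO-L1 thus went partly with higher levels in sO-L1, and both comparisons share the sO-L1 libraries.

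The 6 S and M phase cyclins and CDK1 had 2 lower genes against sO-L1, CCNB2 (-0.16, adjusted p 0.014) and CCNB1 (-0.14, adjusted p 0.0245), and 0 called against ASO-Ctr, where edgeR gave an unadjusted p under 0.05 for 2 of the 6. Of the 3 genes of the CDK-activating kinase, MNAT1 fell against sO-L1 (-0.22, adjusted p 0.0143), CCNH, cyclin H, did not pass (-0.06, adjusted p 0.551) and 0 were called against ASO-Ctr, with 0 at an unadjusted p under 0.05. The 6 genes of the MuvB core and B-MYB had 0 calls against sO-L1, with an unadjusted p under 0.05 for 2, and LIN54, a DNA-binding MuvB subunit, rose against ASO-Ctr (0.22, adjusted p 0.0155). Against sO-L1, LIN54 was at 0.17 (adjusted p 0.0663) and LIN52, another MuvB subunit, at -0.16 (adjusted p 0.135). The shares of all genes beside these counts were 10.3% higher and 12.7% lower against sO-L1, and 9.88% and 11.6% against ASO-Ctr.

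Of 5 CDC25 phosphatases and WEE kinases, 0 were called against sO-L1, with 1 at an unadjusted p under 0.05, and WEE1 (0.25, adjusted p 9.4e-05) and PKMYT1 (0.21, adjusted p 0.00493), kinases that inhibit CDK1, rose against ASO-Ctr. Among 12 ubiquitin ligase subunits that act on G1 cyclins and p27, SKP2, which targets p27 for degradation, fell against sO-L1 (-0.16, adjusted p 0.00819) and FZR1, an activator of the anaphase-promoting complex, rose (0.16, adjusted p 0.0404). Against ASO-Ctr, CKS1B, the cofactor of SKP2, was the 1 gene called in that list (0.27, adjusted p 2.0e-04). Of the 10 MYC network genes in the count table, 0 were called against sO-L1, with 0 at an unadjusted p under 0.05, and MYC rose against ASO-Ctr (0.23, adjusted p 7.4e-04). MXD1 and MLX, the members of that list with the smallest p against sO-L1, were at 0.29 (adjusted p 0.152) and 0.11 (adjusted p 0.192). Beside the counts of these lists, 10.3% of all genes were called higher and 12.7% lower against sO-L1. Against ASO-Ctr the shares were 9.88% and 11.6%. Without the block, 0 genes of these lists were called apart from CDKN1A and CDKN1C. In sO-L1 against ASO-Ctr, 0 genes of these lists were called, with 0 to 3 per list at an unadjusted p under 0.05 in edgeR. DESeq2 and limma-voom also gave 0 wherever edgeR gave 0 for a whole list. In sO-L1 against ASO-Ctr, WEE1 was at 0.13, PKMYT1 at 0.15, CKS1B at 0.19 (adjusted p 0.0607 in edgeR) and MYC at 0.16, all uncalled. In ASO-L1 against sO-L1 the same genes were at 0.12, 0.07, 0.08 and 0.07. Their rises against ASO-Ctr were thus partly present in sO-L1 as well, and both comparisons share the ASO-Ctr libraries.

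**Figure D5:**
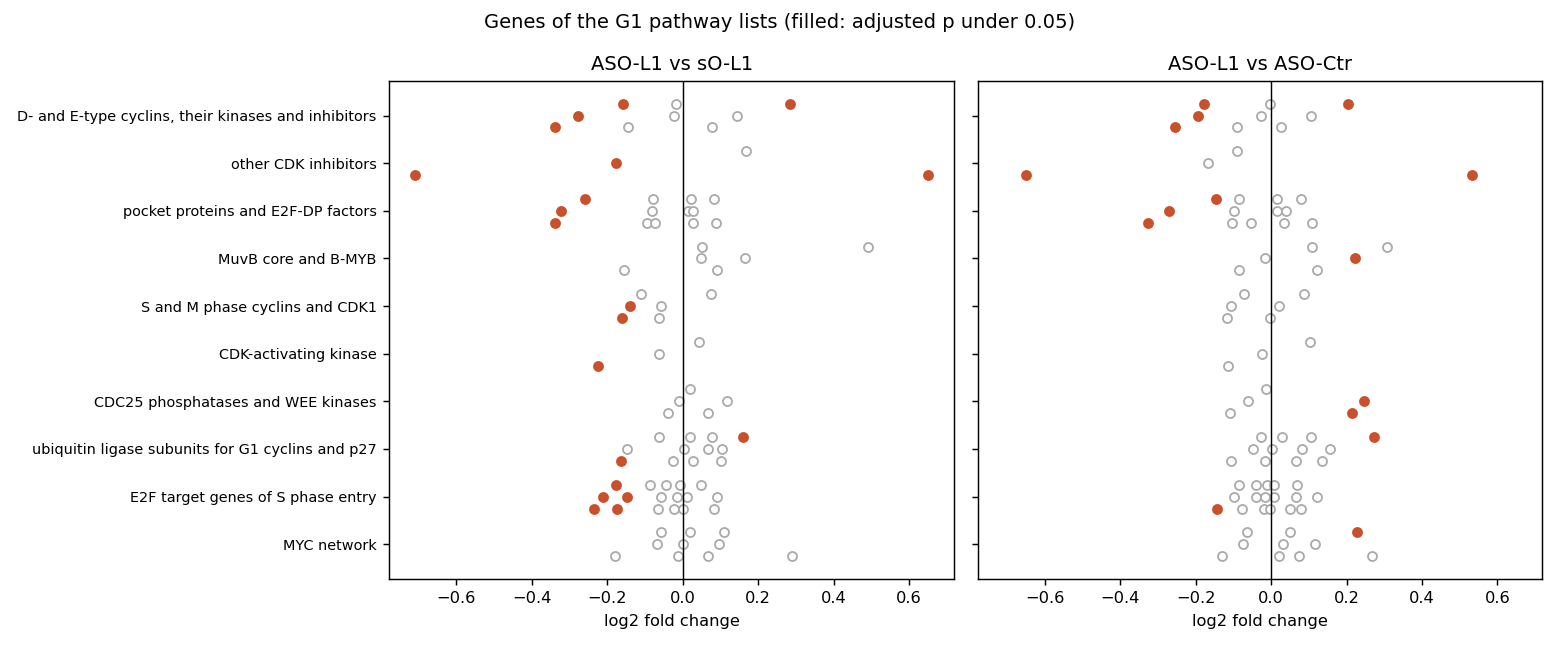
Log2 fold change of each tested gene of 10 lists around the G1 phase engine, 1 point per gene and list, in the 2 ASO-L1 comparisons. Filled points passed at an adjusted p under 0.05 in the fit with the replicate block. The E2F targets share MYBL2 with MuvB and B-MYB, and CCNA2 with the S and M phase cyclins. The outermost filled points belong to CDKN1A (0.65 and 0.53) and CDKN1C (-0.71 and -0.65). Filled points lie only to the left of 0 for pocket proteins, E2F targets, S and M phase cyclins and the CDK-activating kinase. They lie only to the right for MuvB and B-MYB, CDC25 and WEE genes, and the MYC network.

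Divided by exonic length in GENCODE v29, the levels of the 10 genes fell in much the same order in all groups. In ASO-Ctr, CCND2 (32.5 CPM per kb) and CDK4 (31.6) led and overlapped between libraries. They were followed by CCNE1 (25.5), CCND1 (12.3), CDKN1B (10.5), CDK2 (9.67), CCND3 (4.66), CDK6 (1.89), CCNE2 (1.37) and CDKN2C at 0 or 1 count. In sO-L1, CDK4 (31.9) and CCND2 (30.7) overlapped again, as did CDKN1B and CDK2, and CDK6 and CCNE2. In ASO-L1, CCND2 (37.4 ± 0.513, SD) was above CDK4 (31.6 ± 3.51) with no overlap, CCNE1 came next at 21.3, and CDKN1B (11.3) and CCND1 (10.8) overlapped. On this scale CDK4 was 15.9 to 19.96 times the level of CDK6 in the 6 libraries, and CCND2 was 2.005 to 3.97 times that of CCND1. Full exonic length was used. The exon overlaps of CDK4 (43.2%) and CCNE2 (37%) with genes on the opposite strand therefore limit these levels as well.

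Among each other, the 9 genes varied in no common direction over the 6 libraries, which come from 3 groups and 2 replicate numbers. Pearson's r of log2 CPM was -0.96 between CCND2 and CCNE1, 0.81 between CCNE1 and CDK2, 0.74 between CDK4 and CDK6, and -0.94 between CCND1 and CCND3. Of 8580 genes with an average log2 CPM of at least 4, those most like CCND1 were MAP4K5 (r = 0.992), KIAA1731 (0.988) and OSBPL1A (0.987), and 31 genes were above 0.95. Those most like CCND2 were ITPRIP (0.999), FAM129A (0.995) and WDR4 (0.988), with 130 genes above 0.95. These are descriptions over 6 points that share group and replicate differences.

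In the authors' deposited table for ASO-L1 minus sO-L1, 9 of the 10 genes were listed and 3 had an adjusted p under 0.05, beside 23.2% of its 16753 genes. In the authors' deposited table these were CCND1 (-0.33, adjusted p 7.1e-05), CCND2 (0.29, 7.3e-06) and CCNE1 (-0.27, 2.7e-04). CDK2 (-0.15, 0.0718) and CDKN1B (0.16, 0.0775) did not pass in the authors' deposited table. That table was made from the same libraries and is no independent measurement.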

How the data were processed

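Poly(A) RNA of 6 H9 libraries, 2 per group, was sequenced with a directional kit. Per the submitters' processing notes, the authors used Trim Galore 0.4.0, TopHat2 2.0.13, the hg19 genome and featureCounts of Subread 1.5.0. The authors deposited 1 raw count per gene symbol and library; the table's name says that duplicates were removed. Whether counting used strand is not given in the sources used here. The authors' deposited log2 values are normalized and batch-corrected, as that table's name says, and the authors' deposited p-values and log2 fold changes cover ASO-L1 minus sO-L1.

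Genes were tested with edgeR 4.0.16 (R 4.3.3) on the deposited counts: TMM factors (0.983 to 1.02), filterByExpr (minimum count 10, minimum total 15), a robust quasi-likelihood fit of all 6 libraries with group and replicate number, and Benjamini-Hochberg adjustment over 19156 genes. The replicate number was kept as a block because the study lists a batch-corrected table. The spread of a gene had 2 residual degrees of freedom and was moderated with a median of 44.8 prior degrees of freedom from all genes. SE is the log2 fold change divided by the square root of F. CPM uses TMM-scaled library sizes. DESeq2 1.42.0 and limma 3.58.1 (voom) were alternatives, and the code was tested on simulated data. The 92 spike-in entries, with 0 to 4 counts per library, were left out. Exonic lengths and overlaps came from GENCODE v29, a later build than the counts.

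All 10 genes are named in each comparison. Of the other lists, the 2 genes with the smallest p in ASO-L1 against sO-L1 and all tested CDK inhibitors are named, and E2F2, E2F7, PCNA, RRM2, CKS1B and MYC were named after their values were seen. The genes and lists were chosen with earlier results of these data known.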

Additional observations from a re-analysis of the deposited data

How the results depend on the processing

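The replicate numbers are 2, and the labels do not say what they share. The correlation of replicate differences between groups was 0.191 to 0.278. With the replicate block left out, genes called higher and lower went from 1982 and 2430 to 175 and 177 (ASO-L1 against sO-L1), from 1893 and 2227 to 173 and 201 (ASO-L1 against ASO-Ctr) and from 126 and 204 to 0 and 0 (sO-L1 against ASO-Ctr). G1 genes called higher and lower went from 1 and 3 to 0 and 0 in both ASO-L1 comparisons. In that same order of comparisons, DESeq2 gave 1051 and 1304, 1146 and 1290, and 54 and 71 genes, and thinning all libraries to 18897936 counts gave 981 and 1071, 1062 and 1138, and 46 and 71. In sO-L1 against ASO-Ctr, limma-voom gave 67 and 124 genes, and the fit of only the 4 libraries compared gave 229 higher. In ASO-L1 against ASO-Ctr, DESeq2, limma-voom and thinning each left 1 G1 gene called lower, CCNE1. The cause was not tested.

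With 1 library left out, genes called higher ranged from 773 to 2087, 1058 to 1706 and 2 to 217 in the 3 comparisons, and genes called lower from 1029 to 2615, 1278 to 1987 and 7 to 279. The lowest counts of the third comparison came without sO-L1 replicate 1. G1 genes called ranged from 0 to 1 higher and 1 to 2 lower in ASO-L1 against ASO-Ctr. The arm left with 1 library was assumed to vary like the others.

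Of the uncalled values, these changed sign. CDK4 in ASO-L1 against ASO-Ctr was 0.0089 with no low-count filter, 0.0092 after thinning, 0.00036 in DESeq2 and 0.0031 with no replicate block, against a main value of -0.0033. After thinning, sO-L1 against ASO-Ctr was -0.020 for CDK2 and 0.062 for CDKN1B. With 1 library left out, ASO-L1 against sO-L1 ranged from -0.28 to 0.035 for CCNE2 and -0.069 to 0.033 for CDK4. ASO-L1 against ASO-Ctr ranged from -0.0063 to 0.077 for CCND3, -0.15 to 0.060 for CCNE2 and -0.051 to 0.050 for CDK4. sO-L1 against ASO-Ctr ranged from -0.083 to 0.0018 for CCND3, -0.013 to 0.054 for CCNE1, -0.081 to 0.23 for CCNE2, -0.011 to 0.12 for CDK2, -0.020 to 0.048 for CDK4 and -0.093 to 0.036 for CDKN1B. CCND1, CCND2 and CCNE1 kept their sign in both ASO-L1 comparisons under all 15 alternatives. CDK2, CDK6 and CDKN1B kept theirs as well, with few calls or none, so a kept sign did not go with a call. Depth limits CDKN2C, at 0 or 1 count, and CCNE2, at 118 to 422 counts.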
